A study of Mus musculus with 25 samples.

Results

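Granule cells of the dentate gyrus were followed through 8 genes that mark their identity, namely Prox1, C1ql2, C1ql3, Dsp, Calb1, Glis3, Stxbp6 and Dock10. The genes were taken by name from tables of 24411 genes, and all 8 were present in each of 3 tables. NeuN+ nuclei were sorted from the hippocampus of male mice and their RNA was sequenced, in 25 libraries of 3 experiments. In the aging experiment, 3 libraries from young (3 months) and 2 from aged (18 months) wild-type mice were compared. In the overexpression (OE) experiment, 5 control libraries came from young mice (3 months) injected with virus encoding GFP, and the 7 labelled Ftl1 OE from mice of that age given virus encoding Ftl1, both under the neuronal synapsin-1 promoter. In the knockdown (KD) experiment, 4 control libraries came from aged mice (18 months) that received a short hairpin RNA against luciferase, and the 4 labelled Ftl1 KD from mice of that age that received one against Ftl1. Virus was injected into the CA1 and dentate gyrus regions, and nuclei were gated on a DNA dye and NeuN and not on a viral marker, so that a library holds nuclei of all hippocampal subfields.

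Granule cells are the principal excitatory neurons of the dentate gyrus, and their axons, the mossy fibres, contact the pyramidal cells of CA3. Prox1 is the homeobox transcription factor that maintains granule cell identity against that of CA3 pyramidal cells, and it is also made by a class of interneurons. The other genes encode secreted synaptic organizers of mossy fibre synapses (C1ql2 and C1ql3), the calcium buffer calbindin (Calb1), the desmosomal protein desmoplakin (Dsp), a zinc finger transcription factor (Glis3), the syntaxin-binding protein amisyn (Stxbp6) and an exchange factor for small GTPases (Dock10). Calb1 is also abundant in CA1 pyramidal cells and in some interneurons. In a bulk library, fewer granule nuclei and less RNA of these genes per nucleus cannot be told apart.

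In mm10, Prox1 (ENSMUSG00000010175.13) lies on the minus strand at chr1:190118035-190170714, Dock10 (ENSMUSG00000038608.15) on the minus strand at chr1:80501073-80758527 and C1ql2 (ENSMUSG00000036907.9) on the plus strand at chr1:120340582-120343174. C1ql3 (ENSMUSG00000049630.6) lies on the minus strand at chr2:13003457-13011806, Calb1 (ENSMUSG00000028222.2) on the plus strand at chr4:15881264-15908064 and Stxbp6 (ENSMUSG00000046314.16) on the minus strand at chr12:44852484-45074709. Dsp (ENSMUSG00000054889.10) lies on the plus strand at chr13:38151294-38198577 and Glis3 (ENSMUSG00000052942.13) on the minus strand at chr19:28258851-28680077. C1ql2 and C1ql3 are paralogs, yet no stretch of 50 bases of either coding transcript occurs in another gene, and of Stxbp6, the only one of the 8 with such stretches, 1.47% do. Exons of Prox1 overlap the opposite-strand gene Prox1os, those of C1ql3 overlap Gm37811 and Gm37824, and those of Dsp overlap Gm10129. Whether reads were counted by strand is not given in the sources used here, so for these 3 genes reads of both strands cannot be told apart.

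Promoters are shown for Prox1, Dock10 and Glis3, whose levels moved together across the libraries of one experiment, and for C1ql2, which moved the other way. Each is the 250 bases before the RefSeq start (GRCm38.p6), read 5′ to 3′ on the strand of the gene, at chr1:190170828-190171077 for Prox1, chr1:80758554-80758803 for Dock10, chr19:28680078-28680327 for Glis3 and chr1:120340332-120340581 for C1ql2. RefSeq holds 2 promoters each for Prox1 and Dock10, of which only the one farthest upstream was used. Capitals mark each E-box (CANNTG, the same on both strands), the core motif of basic helix-loop-helix factors.
Prox1: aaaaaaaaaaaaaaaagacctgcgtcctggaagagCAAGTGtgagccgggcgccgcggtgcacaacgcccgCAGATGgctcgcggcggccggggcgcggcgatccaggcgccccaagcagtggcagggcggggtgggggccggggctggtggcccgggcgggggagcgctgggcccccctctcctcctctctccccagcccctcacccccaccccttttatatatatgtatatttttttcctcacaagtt
Dock10: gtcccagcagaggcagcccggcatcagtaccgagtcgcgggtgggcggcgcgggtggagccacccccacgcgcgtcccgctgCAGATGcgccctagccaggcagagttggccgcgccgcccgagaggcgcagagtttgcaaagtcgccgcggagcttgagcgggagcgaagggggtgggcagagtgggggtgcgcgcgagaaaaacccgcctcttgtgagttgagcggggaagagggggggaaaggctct
Glis3: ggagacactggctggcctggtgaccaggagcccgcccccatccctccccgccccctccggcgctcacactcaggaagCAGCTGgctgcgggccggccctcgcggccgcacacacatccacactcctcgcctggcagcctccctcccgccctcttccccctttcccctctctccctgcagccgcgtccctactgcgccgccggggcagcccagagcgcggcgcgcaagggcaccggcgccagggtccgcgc
C1ql2: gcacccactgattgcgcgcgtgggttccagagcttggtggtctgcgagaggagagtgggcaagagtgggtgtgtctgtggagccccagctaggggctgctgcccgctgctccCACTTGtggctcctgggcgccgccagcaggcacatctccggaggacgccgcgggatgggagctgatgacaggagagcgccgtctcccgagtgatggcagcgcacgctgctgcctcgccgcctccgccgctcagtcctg
None of the 4 windows contains an annotated exon. Prox1 had 2 E-boxes there and the others 1 each, and 66.2% of the 32851 promoters in the RefSeq table have at least 1. The form CAGATG, searched on both strands, was in the windows of Prox1 and Dock10 and in 14.4% of all promoters. The GC content was 64.8% for Prox1, 70.4% for Dock10, 75.6% for Glis3 and 68.8% for C1ql2, all above the median of 52.4%, and the windows held 20, 27, 24 and 20 CpG pairs against a median of 6.

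Libraries held 7969282 to 9537872 reads in the aging, 9943996 to 17034325 in the OE and 48902 to 358560 in the KD experiment. Ftl1 was higher in the libraries labelled Ftl1 KD than in their controls (log2 fold change 1.47, limma adjusted p = 0.000223), against the label. In the OE experiment the groups overlapped in Ftl1 and no rise was seen (log2 fold change −0.67, limma adjusted p = 0.681, −0.92 to −0.27 when single libraries were left out). Its normalized count was 4580 to 28309 in the OE controls and 4737 to 7663 in the libraries labelled Ftl1 OE, and 24.2 to 56.2 in the KD controls and 106 to 140 in the libraries labelled Ftl1 KD. Rbfox3, which encodes NeuN, was read in every library, at 1762 to 2960 normalized counts in the aging and 2573 to 5301 in the OE experiment. In the KD experiment it was at 2.94 to 15.1, from 2 to 35 reads, and its mean of 8.62 was too low for a test. Markers of cells that the sort should remove were present too, with summed normalized counts of 6 oligodendrocyte genes between 22584 and 47563 in the OE libraries. Among the OE controls, replicates 3 and 5 had the lowest mean deviations of 6 of the 8 genes (all but C1ql2 and Dsp) from the control mean, −1.55 and −0.86 on the log2 scale, and replicate 2 the highest, 1.45. Replicates 3 and 5 had 12281 and 13495 genes with a read, where the other 10 libraries had 13455 to 15602. The ribosomal precursor Rn45s took 2.79% and 4.98% of their reads, against 1.35% to 2.86% in the others. The log2 fold changes and pairwise r of the 8 genes are given with and without replicates 3 and 5. So are most r of listed genes with Prox1, and the median r of all genes with it. Other correlations are not given without both. These include the shares of all genes with as high an r, and those with library measures, GC content, transcript length and the nearest genes.

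All 8 genes were expressed in the aging and OE libraries, at very different levels. Normalized counts per kilobase of the longest coding transcript were compared between genes, as means over all libraries of an experiment. C1ql2 was far above the rest, at 6780 per kilobase in the OE and 1300 in the aging experiment, higher than 99.4% and 98.3% of the genes tested. Calb1 followed in the OE libraries with 404 per kilobase, then C1ql3 with 204, Stxbp6 with 180, Dock10 with 101, Prox1 with 75.7, Dsp with 27.7 and Glis3 with 24.8. In all 12 OE libraries C1ql2 was above Calb1, Calb1 above C1ql3 and Prox1 above Dsp. Other neighbours changed places in some libraries, with C1ql3 above Stxbp6 in 9, Stxbp6 above Dock10 in 11, Dock10 above Prox1 in 10 and Dsp above Glis3 in 9 of 12. In the aging libraries the order was C1ql2, C1ql3 (300.0 per kilobase), Calb1 (263), Stxbp6 (80.5), Glis3 (59.5), Dock10 (44.8), Prox1 (42.5) and Dsp (16.5). There only the steps from C1ql2 to C1ql3 and from Calb1 to Stxbp6 held in all 5 libraries. The 2 tables were normalized separately, so levels are not compared between them.

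**Figure D1:**
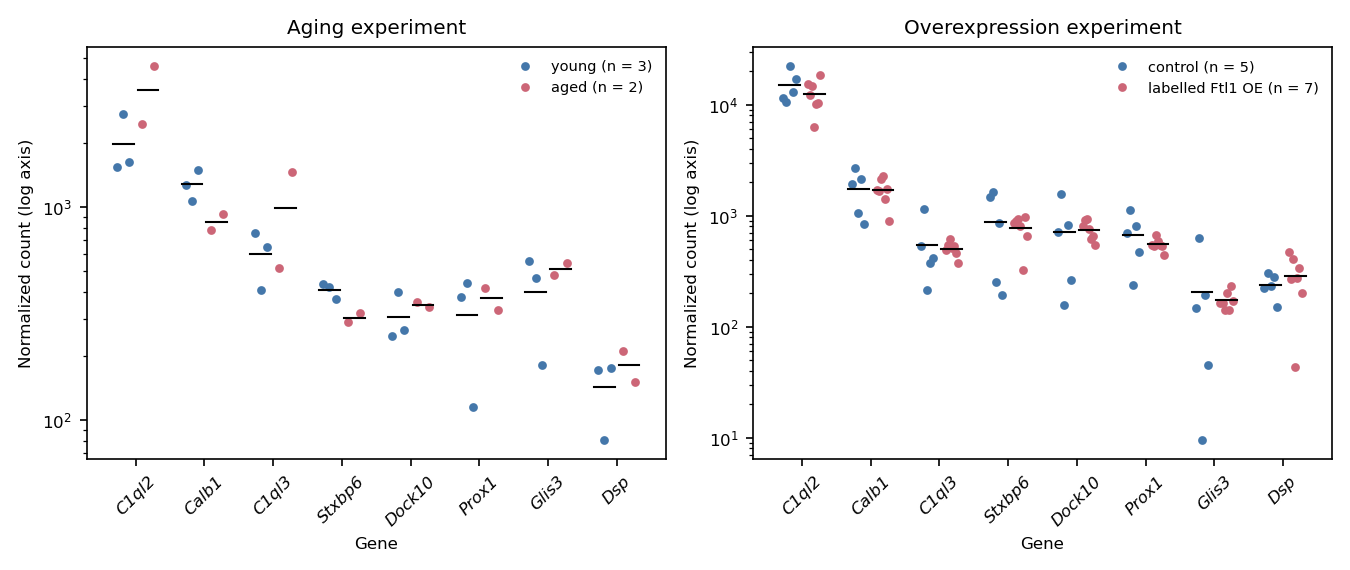
Normalized counts (log axis) of the 8 genes in each library of the aging experiment (left) and the OE experiment (right), with 1 point per library and a bar at the group mean. Groups overlapped for all genes but Calb1 and Stxbp6 in aging, and the OE controls spread more widely than the libraries labelled Ftl1 OE for Prox1, C1ql3, Glis3, Stxbp6, Dock10 and, less so, Calb1.

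For aging, limma was fitted to log2(normalized count + 1) of the 13712 genes whose mean was 10 or more, and p-values were adjusted over all of these (Benjamini-Hochberg). None of the 8 genes passed the threshold, an adjusted p of 0.05 and an absolute log2 fold change of 0.5, and neither did any other gene (0.0% called). Across all genes, 1089 (7.94%) had an unadjusted p of at most 0.05, edgeR called 0 and DESeq2 138 (1.01%), none of the 8 among them. The log2 fold change was above 0 for 6 of the 8 genes and below 0 for 2, with a median of 0.44, while the median of all genes tested was −0.03 and 48.3% of them were above 0.

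The secreted organizers were at higher values in aged libraries, within the spread. Young libraries held 1549, 2731 and 1636 normalized counts of C1ql2, and aged libraries 2462 and 4614. The aged libraries held the highest and the third highest value. The log2 fold change was 0.82 (standard error 0.34, adjusted p = 0.61, unadjusted p = 0.034 from limma), and in limma C1ql2 was the only one of the 8 at an unadjusted p of at most 0.05. Its exact permutation p was 0.3. DESeq2 gave an unadjusted p of 0.0188 for C1ql2 and of 0.0379 for Calb1. C1ql3 had 759, 408 and 649 in the young and 517 and 1465 in the aged libraries, so that its log2 fold change of 0.57 (standard error 0.43) rested on aged replicate 3 and was −0.18 without it.

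Prox1 and Glis3, the transcription factors, had 1 young library far below the others. Prox1 was at 379, 440 and 116 in the young and at 417 and 330 in the aged libraries. Its log2 fold change was 0.46 (standard error 0.53) with young replicate 3, which held the lowest count, and −0.14 without it. Glis3 was at 559, 465 and 181 against 483 and 548, a log2 fold change of 0.51 (standard error 0.46) that was 0.01 in the lowest case when 1 library was left out. Groups overlapped for both genes.

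Calb1 and Stxbp6 were the 2 genes whose groups did not overlap, and both were lower in the aged libraries. Calb1 had 1275, 1071 and 1503 normalized counts in the young and 780 and 927 in the aged libraries, which on the log2 scale was −0.58 with a standard error of 0.29 (limma, adjusted p = 0.643). Stxbp6 had 435, 422 and 370 against 288 and 318, or −0.43 with a standard error of 0.34 (limma, adjusted p = 0.759). Over all genes tested, 24.7% did not overlap between these groups, so 2 of 8 is near the background. The exact two-sided permutation p was 0.2 for Calb1 and 0.1 for Stxbp6, the smallest that 3 libraries against 2 allow. When single libraries were left out, the log2 fold change stayed between −0.70 and −0.45 for Calb1 and between −0.50 and −0.36 for Stxbp6.

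Dsp and Dock10 overlapped between the groups. Dsp was at 172, 80.6 and 176 in young and 212 and 151 in aged libraries, a log2 fold change of 0.41 (standard error 0.53). Dock10 was at 249, 400 and 264 against 359 and 339, a log2 fold change of 0.23 (standard error 0.38). Of the 14 other dentate granule cell genes listed beside these 8, all were tested, 0 passed and 8 were above 0, with a median log2 fold change of 0.04. The 8 CA1 and 7 CA3 genes had medians of −0.14 and 0.05, with 0 past the threshold in either list.

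Between the OE controls and the libraries labelled Ftl1 OE, limma called none of the 8 genes and no gene at all (0.0% of 14099). Unadjusted p-values of at most 0.05 were reached by 0 of the 8 and by 1023 genes in all (7.26%), edgeR called 0 genes and DESeq2 101 (0.716%), none of the 8 among them. DESeq2 gave no adjusted p for Dsp and Glis3. Groups overlapped for each of the 8, as for all but 0.582% of the genes tested. The log2 fold change was above 0 for 6 of the 8, beside 57.4% of all genes, and the exact permutation p was at least 0.361. The median over the 8 was 0.08, beside 0.10 for all genes, and its direction depended on the processing. It was −0.12 with edgeR, −0.14 with DESeq2, −0.43 without control replicates 3 and 5, and −0.16 to 0.34 when single libraries were left out, with the lowest value without control replicate 5 and the highest without control replicate 2.

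The controls spread more widely than the libraries labelled Ftl1 OE for Prox1, C1ql3, Glis3, Stxbp6, Dock10 and, less so, Calb1 (standard deviation 770 against 451). The standard deviations of C1ql2 were 4898 in the controls and 4057 in the others, and those of Dsp 58.9 and 139. A wider spread of the controls was not particular to granule cell genes. Among the 4 genes of neurons in general, the standard deviation of Snap25 was 9950 in the controls against 3410. It was 3230 against 2500 for Syt1, 422 against 238 for Map2 and 701 against 932 for Rbfox3. The spread over all genes was not compared. Prox1 had 693, 1122, 235, 811 and 468 normalized counts in control replicates 1 to 5 and a lowest, median and highest count of 443, 543 and 668 in the libraries labelled Ftl1 OE. Its log2 fold change was −0.10 with a 95% interval from −0.77 to 0.57. Dock10 had 713, 1575, 156, 822 and 262 in the controls, and 540, 757 and 936 as lowest, median and highest in the libraries labelled Ftl1 OE. The log2 fold change of Dock10 was 0.50 (interval −0.44 to 1.43). In both genes control replicate 2 was highest and control replicate 3 lowest of all 12 libraries.

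Glis3 spread widest, with 148, 632, 9.47, 194 and 45.2 in the controls, from 7 to 514 reads, and 140, 164 and 230 as lowest, median and highest in the libraries labelled Ftl1 OE. Its log2 fold change was 0.81 in limma (interval −0.78 to 2.41) and −0.23 in edgeR, so that its direction depended on the test. C1ql3 had 536, 1153, 214, 377 and 414 in the controls and 374, 509 and 615 in the others. Stxbp6 had 1473, 1629, 250, 866 and 192 in the controls and 321, 858 and 967 in the others, and Calb1 had 1943, 2674, 1047, 2157 and 844 against 900, 1694 and 2256. The log2 fold changes of C1ql3, Stxbp6 and Calb1 were 0.11, 0.22 and 0.04, and each turned below 0 with edgeR and DESeq2.

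C1ql2 and Dsp did not follow this spread. C1ql2 had 11533, 10536, 22462, 13080 and 17161 normalized counts in control replicates 1 to 5, with its highest values in replicates 3 and 5, where the mean deviation of the other 6 genes was lowest. Its counts in the libraries labelled Ftl1 OE ranged from 6300 to 18553 with a median of 12333, and its log2 fold change was −0.27 (interval −0.84 to 0.31). Dsp had 224, 304, 234, 280 and 151 in the controls and 43.2, 274 and 467 as lowest, median and highest in the others, a log2 fold change of 0.02 (interval −1.04 to 1.09). Without control replicates 3 and 5, chosen for this after the values were seen, the log2 fold changes were −0.65 for Prox1, −0.41 for Dock10, −0.62 for Glis3, −0.79 for Stxbp6, −0.46 for Calb1, −0.30 for C1ql3, −0.18 for Dsp and 0.03 for C1ql2. Prox1 had the same direction as in the fit with every library and the other 7 genes the opposite one, and none passed the threshold in either. Both replicates lay below the control mean in each of the 6 genes and above it in C1ql2. The direction in which these log2 fold changes shifted therefore followed from the choice.

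**Figure D2:**
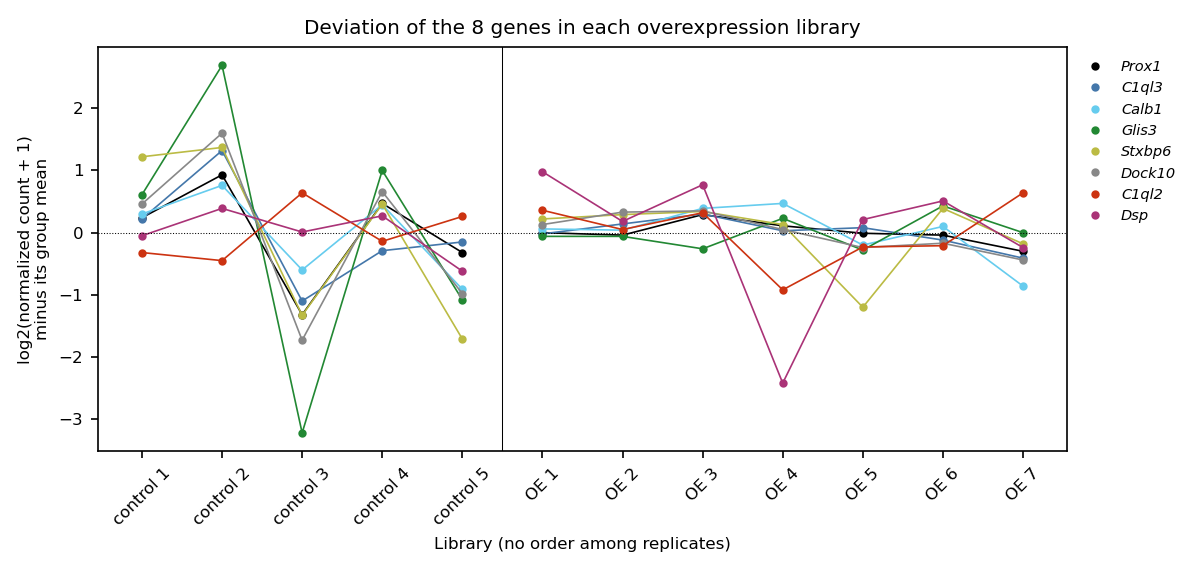
Deviation of log2(normalized count + 1) from the group mean for each of the 8 genes in the 12 OE libraries, with lines that join the values of a gene within a group. In control replicate 3, Prox1, C1ql3, Calb1, Glis3, Stxbp6 and Dock10 lie between −3.22 and −0.60 and C1ql2 at 0.64, and the lowest value of Dsp, −2.42, is in Ftl1 OE replicate 4.

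Covariation of the genes across libraries was described over the 12 OE libraries, with log2 values centred within each group. These points share their size factors and differ in depth, and 12 libraries are few, so correlations are descriptions. Of the 28 pairs, 22 had a Pearson r above 0, with a median of 0.65. Prox1, C1ql3, Calb1, Glis3, Stxbp6 and Dock10 had an r above 0 in all 15 of their pairs, between 0.63 and 0.96 (Spearman 0.32 to 0.93). When the 2 libraries farthest from the median of the first gene of a pair were left out, these ranged from −0.11 to 0.91 with a median of 0.75, and the lowest was that of C1ql3 and Glis3, which had been 0.83. This grouping was made after the values were seen.

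Prox1 and Dock10 were the closest pair, with r = 0.96 (Spearman 0.93), and only 0.128% of all genes tested had as high an r with Prox1. Prox1 and Glis3 had r = 0.95 (Spearman 0.68), reached by 0.376% of genes. For Calb1 and Stxbp6 the r with Prox1 was 0.78 and 0.75, reached by 10.5% and 12.9% of genes. The background was wide, and the quartiles of r with Prox1 over all genes were −0.46 and 0.58. Without the 2 libraries farthest from the median of Prox1, control replicates 2 and 3, the r of Prox1 was 0.89 with Dock10, 0.69 with Glis3, 0.89 with Calb1 and 0.64 with Stxbp6. With C1ql3 it fell from 0.87 to 0.38.

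C1ql2 ran against these 6 genes, with r between −0.69 (Calb1) and −0.45 (Stxbp6) and Spearman correlations between −0.66 and −0.50. With Prox1 its r was −0.61, lower than that of 82.0% of all genes. Dsp had low Pearson r with the 6 genes, between 0.08 and 0.21, and Spearman correlations between 0.13 and 0.47. Without the 2 farthest libraries of the first gene of each pair, these r ranged from 0.11 to 0.51, and without control replicates 3 and 5 from −0.15 to 0.17. Dsp had an r of 0.49 (Spearman 0.14) with C1ql2. For C1ql2 with the 6 genes, r ranged from −0.65 to −0.41 without the 2 farthest libraries of the first gene of each pair. The opposite course of C1ql2 rested in part on control replicates 3 and 5. Without control replicates 3 and 5, its r with the 6 genes ranged from −0.59 to 0.00, that of the 15 pairs among the 6 from 0.26 to 0.88, and the median over all 28 pairs was 0.34. Without Ftl1 OE replicate 4, its lowest library, and control replicate 3, C1ql2 and Dsp had an r of −0.08, and without control replicates 3 and 5 one of 0.70.

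**Figure D3:**
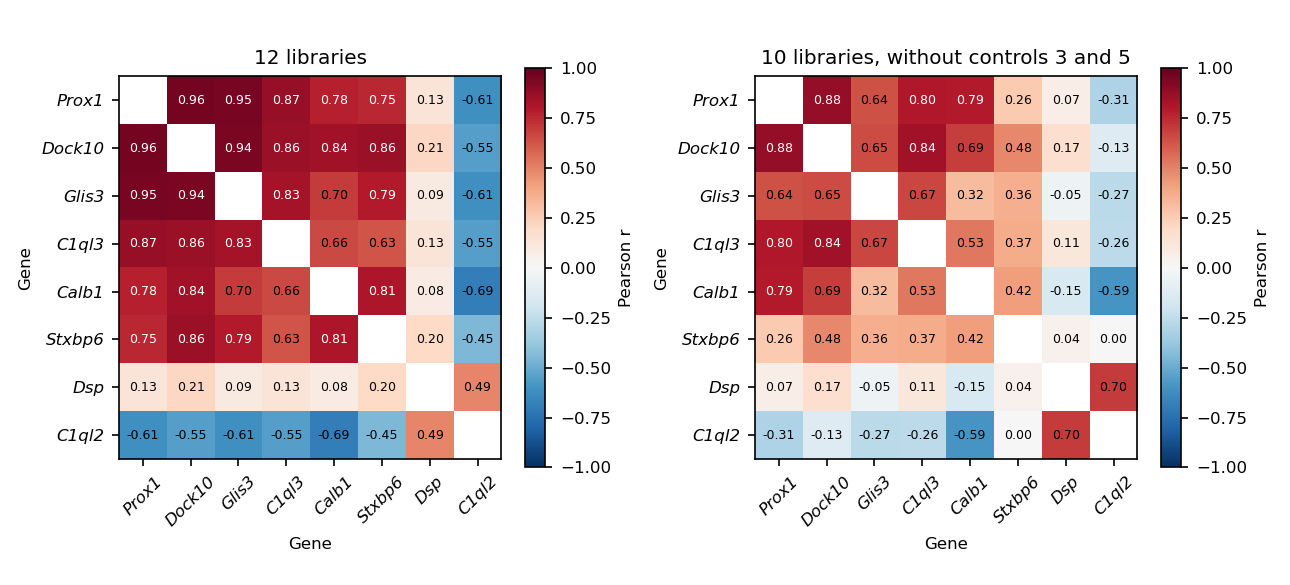
Pearson r of each pair of the 8 genes over the 12 OE libraries (left) and over the 10 libraries without control replicates 3 and 5 (right), from log2 values centred within each group. Prox1, Dock10, Glis3, C1ql3, Calb1 and Stxbp6 form a positive block with r of 0.63 to 0.96 on the left, which spreads to 0.26 to 0.88 on the right, where C1ql2 lies at 0.00 or below with each of them.

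Other genes of the dentate gyrus and of other subfields split in the same way. Of 14 other dentate granule cell genes, 9 had an r above 0 with Prox1, from −0.93 to 0.97 with a median of 0.34, beside a median of 0.14 for all genes. The 3 most abundant of them all ran against Prox1, namely Gabrd (the delta subunit of GABA-A receptors, r = −0.93), Plk5 (r = −0.64) and Pdyn (prodynorphin, r = −0.90). These 3 ran with C1ql2, at r = 0.74, 0.84 and 0.79. At the other end stood Trpc6, a cation channel named here after its value was seen, with r = 0.97 with Prox1 and −0.64 with C1ql2.

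Of the 8 CA1 genes, 4 had an r above 0 with Prox1, and the 3 most abundant, Wfs1, Fibcd1 and Mpped1, had r = −0.62, −0.71 and −0.85 with Prox1 and 0.77, 0.88 and 0.71 with C1ql2. Of the 7 CA3 genes, 3 were above 0, and Bok, Spock1 and Grik4 had r = −0.79, −0.69 and −0.62 with Prox1. Interneuron genes split too, with 6 of 9 above 0, among the most abundant Gad1 at 0.75 and Sst at −0.84. Of the 4 genes of neurons in general, all had an r above 0 with Prox1 (0.36 to 0.85). Each of the dentate, CA1, CA3 and interneuron lists thus held genes on both sides of 0. Without control replicates 3 and 5, the median r with Prox1 moved from 0.34 to 0.29 for the other dentate genes, from −0.12 to −0.07 for CA1, from −0.45 to −0.07 for CA3 and from 0.48 to 0.14 for interneuron genes. Over all genes tested it moved from 0.14 to −0.02. Of the genes named, Gabrd, Plk5 and Pdyn then had −0.73, −0.52 and −0.46, Trpc6 0.79, Wfs1, Fibcd1 and Mpped1 −0.37, −0.46 and −0.17, Bok, Spock1 and Grik4 −0.68, −0.07 and −0.75, and Gad1 0.48. Sst changed sign, to 0.14. Among cells that the sort should remove, astrocyte, oligodendrocyte and endothelial genes had a median r with Prox1 of 0.64, 0.15 and 0.35. Microglia, oligodendrocyte precursor and choroid plexus genes had −0.11, −0.31 and −0.17. Without control replicates 3 and 5, these medians lay between −0.59 (choroid plexus) and −0.09 (astrocytes). Newborn granule neuron genes had a median of 0.69, and of 0.06 without those controls.

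**Figure D4:**
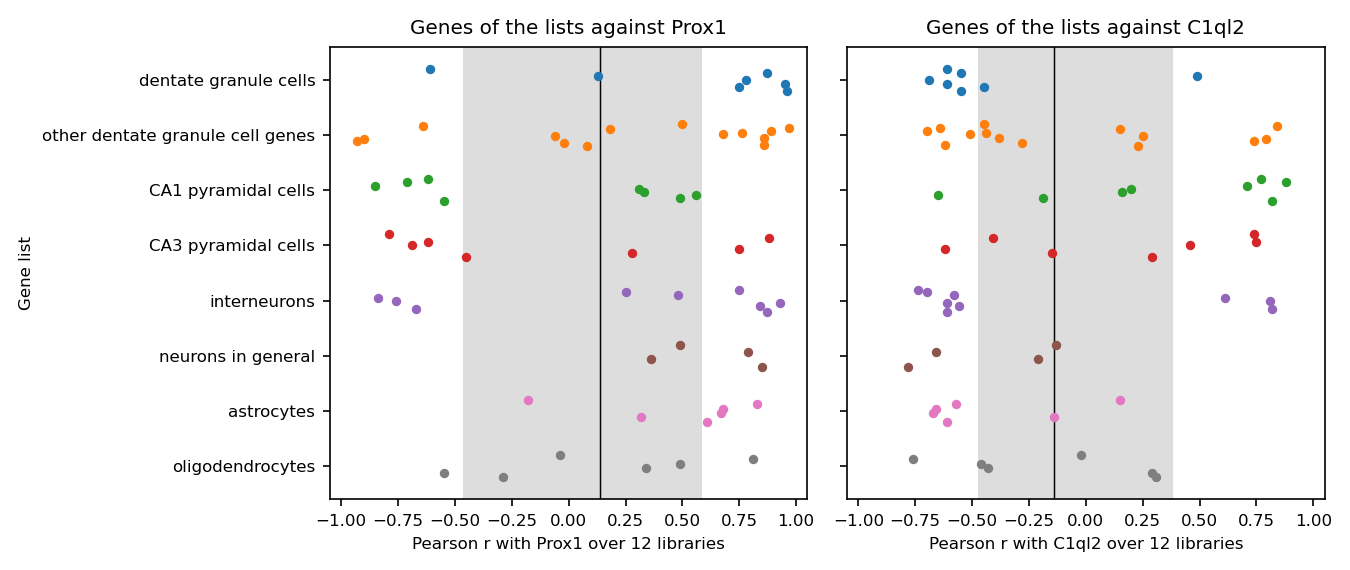
Pearson r with Prox1 (left) and with C1ql2 (right) over the 12 OE libraries for the genes of 8 lists, 1 point per gene. The line and the grey band give the median and the quartiles of all 14098 other genes tested, and genes of the dentate, CA3 and interneuron lists lie on both sides of the band in the left panel, where CA1 genes reach 0.56 and lie within it or below.

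Measures of the libraries moved with the 6 genes as well. Ftl1 had an r of −0.95 with Prox1 and −0.85 with Dock10, and 0.67 with C1ql2. Leaving out its 2 most distant libraries moved these to −0.74, −0.42 and 0.59. The share of Rn45s had an r of −0.84 with Stxbp6, −0.80 with Calb1 and −0.48 with Prox1, and 0.54 with C1ql2. Without the 2 libraries most distant in that share, these were −0.81, −0.57, −0.45 and 0.44. The number of genes with a read had an r of 0.56 with Prox1 and −0.33 with C1ql2. Without the 2 libraries most distant in that number, these were 0.23 and −0.25. Rbfox3 had an r of 0.49 with Prox1, 0.5 with Dock10 and −0.13 with C1ql2. Leaving out its 2 most distant libraries moved these to 0.76, 0.82 and −0.53. The total reads had an r of −0.25 with Prox1 and 0.25 with C1ql2. Without the 2 libraries most distant in total reads, these were −0.46 and 0.70. Across genes, which are not independent replicates, the r with Prox1 fell with the GC content of the transcript (Spearman −0.56 over 13570 genes) and rose with its length (Spearman 0.34), whereas the r with C1ql2 rose with GC content (Spearman 0.61) and fell with length (Spearman −0.30). The fifth of genes lowest in GC, at most 44.5%, had a median r of 0.59 with Prox1, and the fifth highest, at least 56.1%, one of −0.48. The transcript of C1ql2 has a GC content of 63.4% and 2000 bases, and those of the 6 genes have 36.8% (Calb1) to 53.1% (C1ql3) and 2535 to 7913 bases. The part of these measures, of GC content and of length in the covariation was not tested.

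Genes most like the 8 were sought over the 17 libraries of the aging and OE experiments, centred within their 4 groups, among 9119 genes with a mean of at least 100 in both tables. The mean of the 8 genes was most like Camk1d (r = 0.94), a calmodulin-dependent kinase, and among those next to it were Scrn3, Nrcam, Slu7, AI597479, Nedd4l, Rnf115, Ndc1 and Arl1, the last with r = 0.918. Of the 8 genes themselves, Dock10 had an r of 0.94 with that mean, Glis3 0.91, Stxbp6 0.87, Prox1 0.78, Calb1 0.74, C1ql3 0.72, Dsp 0.35 and C1ql2 −0.30. Each of the 8 is part of that mean, which raises its r, most for the genes that vary most. These r are therefore not comparable with those of the genes outside it. Prox1 alone was most like Rundc3b (r = 0.881), Terf2ip, Dhx40, Slc30a9 and Pex3 (r = 0.846).

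In the KD experiment C1ql2 was the only one of the 8 genes with enough reads to be tested, and it was lower in the libraries labelled Ftl1 KD. Its normalized counts were 49.1, 77.4, 33.7 and 43.9 in control replicates 1, 2, 3 and 5, from 52, 192, 18 and 105 reads, and 20.1, 19.8, 21.9 and 8.82 in Ftl1 KD replicates 1, 3, 4 and 5, from 21, 22, 12 and 6 reads. The groups did not overlap. On the log2 scale it fell by 1.49 with a standard error of 0.31 (limma over 1460 genes, adjusted p = 0.0013), from a mean of 51.0 ± 18.7 to 17.7 ± 5.97 (SD, n = 4 each). The exact permutation p was 0.029, the smallest that 4 libraries against 4 allow. Among all genes tested, limma called 24.2%, of which 13.7 percentage points were lower, edgeR 28.8% and DESeq2 23.8%, and 38.2% had an unadjusted p of at most 0.05. Groups did not overlap for 23.8% of genes (11.9% lower), 49.5% had a log2 fold change above 0 and 5.07% had one as low as that of C1ql2. edgeR and DESeq2 gave −1.51 (adjusted p = 0.000463) and −1.53 (adjusted p = 0.000322), and the value ranged from −1.66 to −1.20 when single libraries were left out, with adjusted p-values of at most 0.0132.

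Since Rn45s took 31.9% to 55.3% of the reads in the controls and 30.3% to 34.5% in the libraries labelled Ftl1 KD, C1ql2 was also counted among the reads outside Rn45s. Per 100000 such reads it had 73.8, 120.0, 56.1 and 65.1 in the controls and 33.0, 32.6, 37.0 and 14.4 in the others, so that every control stood above every library labelled Ftl1 KD. Means were 78.8 ± 28.4 and 29.2 ± 10.1 (SD, n = 4 each; exact permutation p = 0.029). Exact 95% binomial intervals of single libraries, which cover counting error only, were as wide as 33.3 to 88.7 in control replicate 3 and 19.1 to 64.6 in Ftl1 KD replicate 4.

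**Figure D5:**
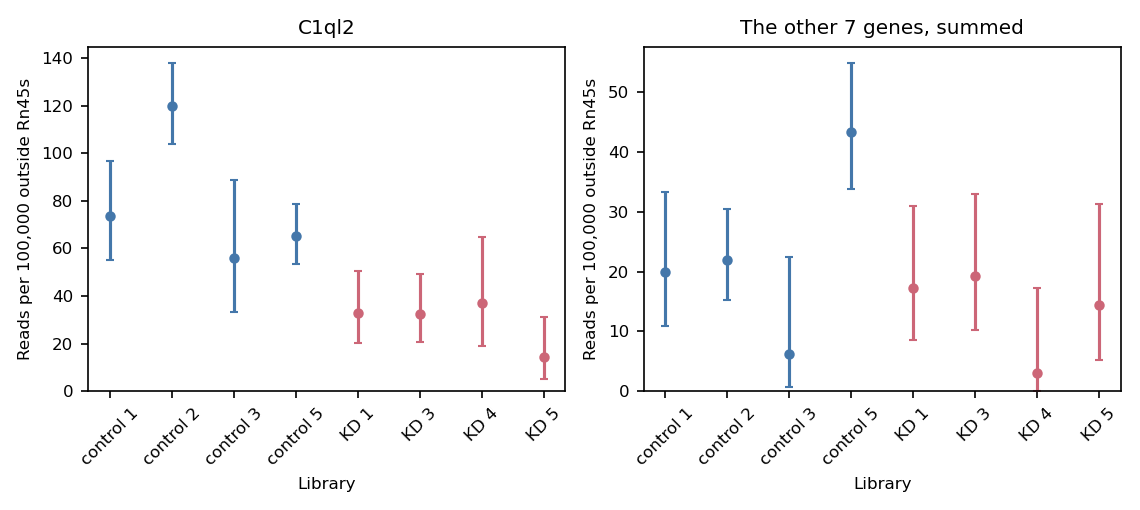
Reads of C1ql2 (left) and of the other 7 genes summed (right) per 100000 reads outside Rn45s in each KD library, with exact 95% binomial intervals for counting error. C1ql2 lies at 56.1 to 120.0 in the 4 controls and at 14.4 to 37.0 in the 4 libraries labelled Ftl1 KD, and the summed genes overlap.

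The other 7 genes had 0 to 23 reads in any KD library and mean normalized counts of at most 2.25, so changes in them were not detectable at this depth. Summed over the controls and over the libraries labelled Ftl1 KD, Prox1 had 18 and 2 reads, Glis3 31 and 2, Dock10 15 and 2, C1ql3 13 and 2, Dsp 14 and 5, Stxbp6 19 and 6, and Calb1 11 and 12. Depth differed, with 70458, 160180, 32070 and 161242 reads outside Rn45s in control replicates 1, 2, 3 and 5 against 32449 to 67394 in the libraries labelled Ftl1 KD, so that control replicate 3 was the shallowest and the other controls were the deepest. Together these 7 genes had 22.9 ± 15.4 reads per 100000 in the controls and 13.5 ± 7.24 in the libraries labelled Ftl1 KD (SD, n = 4 each; exact permutation p = 0.371). Control replicate 5 alone was at 43.4 and the other controls at 6.24 to 21.9, beside 3.08 to 19.3 in the libraries labelled Ftl1 KD. C1ql2 made up 78.3% ± 13.1 and 67.7% ± 17.8 of the reads of the 8 genes (exact permutation p = 0.40).

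The other lists show what else differed between these libraries. None of the 14 other dentate genes reached the limit for a test, Tdo2 had no read, and their summed normalized counts were 54.1 to 105 in the controls and 29.4 to 47.0 in the libraries labelled Ftl1 KD. Of 8 CA1 genes 3 were tested and Fibcd1 fell, with −1.47 on the log2 scale and a standard error of 0.34 (limma, adjusted p = 0.00276), with the list at 54.3 to 95.7 against 39.3 to 70.5. CA3 genes summed to 25 to 34.0 and 7.35 to 31.0, with none tested. Of 9 interneuron genes 4 were tested, and Gad1, which encodes a GABA-synthesizing enzyme, rose by 1.49 on the log2 scale (limma, adjusted p = 0.0038), with the list at 60.2 to 98.4 against 122 to 166. Both oligodendrocyte genes tested, Mbp and Cnp, fell, with log2 fold changes of −1.87 and −1.88 (limma, adjusted p = 0.000433 and 0.0484), with that list at 36.8 to 93.6 against 10.9 to 21.6. Mbp and Cnp reached the limit through the controls alone, with means of 36.8 and 17.6 there. Their means in the libraries labelled Ftl1 KD were 9.61 and 4.71. Of 3 astrocyte genes tested 1, Slc1a3, rose, with its list at 33.7 to 69.8 against 59.5 to 76.5. Slc1a3 reached the limit through the libraries labelled Ftl1 KD alone, with means of 5.56 in the controls and 25.3 in those libraries. The part of these differences in the lower count of C1ql2 was not tested.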

How the data were processed

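RNA of NeuN+ hippocampal nuclei was sequenced in 25 libraries of 3 experiments, grouped by the sample labels. The authors aligned reads with STAR to the mm10 transcriptome, quantified genes with RSEM and normalized them with DESeq2. The deposited tables, 1 per experiment and normalized separately, give each library's normalized count, a signal in the sense that the authors divided each count by a size factor. Dividing by the smallest step returned whole reads (within 0.1 of a read) for 100% of genes in each library, and 0 library columns were left unused. The tables also hold the authors' own comparisons, which were not used. Library preparation is given as modified Smart-seq2 in the methods and as a strand-specific polyA kit in the labels, and the methods name both lentiviral constructs and an adeno-associated virus for injection. Aging libraries came from separate mice. The sources used here do not say how many mice gave each OE or KD library, so those p-values measure the spread between libraries, which may be technical.

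Groups were compared within a table with limma 3.58.1 in R 4.3.3 on log2(normalized count + 1), letting the prior variance follow the mean, over genes with a mean of at least 10, and with Benjamini-Hochberg adjustment over all of them. A log2 fold change is on this scale and understates the change of low genes. Genes were called at an adjusted p of at most 0.05, and in aging only where the log2 fold change was also 0.5 or more in size. Alternatives were pseudocounts of 0.5 and 5, no filter and a mean of at least 100, TMM scaling, median centring, edgeR 4.0.16 and DESeq2 1.42.0 on the recovered reads, a replicate block, and each library left out in turn. The fits were tested on simulated data. Exact permutation tests were two-sided, on the difference of group means of log2 values, or of shares of reads where these are given. Within groups, libraries differed by more than counting error, the smallest chi-square per degree of freedom being 26.4 (aging), 40.5 (OE) and 1.55 (KD), so none was a copy of another. Positions and transcripts were taken from GENCODE M21 and promoters from RefSeq, which held 7 of the 8 genes. Correlations, counts and intervals used Python 3.11.15 with numpy 2.4.6 and scipy 1.17.1, and plots matplotlib 3.10.9.

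The 8 genes and the 14 other marker lists were chosen with earlier results of these data known. All 8 genes were named. Of the other lists, the 3 most abundant genes in the OE table or genes past the threshold were named, and of genes most alike, the 10 nearest to the mean of the 8 and the 5 nearest to Prox1. Some genes that this rule names are not reported here.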

Additional observations from a re-analysis of the deposited data

Results flagged for a closer look

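The highest and lowest library of each group of 4 or more was set against the others of its group for each gene tested in the OE and KD experiments, in 18 groups of values. A gap of this size between 1 library and the rest arises by chance in about 1 of 20 groups, which would be 0.9 here, and 3 were found. Dsp was at 43.2 normalized counts in Ftl1 OE replicate 4 and at 200 to 467 in the other 6 libraries of its group, a gap of 0.642 of the range on the log2 scale. Stxbp6 was at 321 in Ftl1 OE replicate 5, where the other 6 had 652 to 967, also a gap of 0.642 of the range. C1ql2 was at 8.82 in Ftl1 KD replicate 5, from 6 reads, with 19.8 to 21.9 in the other 3, a gap of 0.891 of the range. Without that library the log2 fold change of C1ql2 in the KD experiment was −1.20, with an adjusted p of 0.00685 from limma.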

How the results depend on the processing

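The count of genes past the threshold, 0 of 8 in aging, 0 of 8 in OE and 1 of 1 tested in KD, was the same under every alternative that could be run. At a mean of at least 100, none of the 8 genes was tested in KD. The median log2 fold change in aging was 0.44, and ranged from 0.08 (without young replicate 3) to 0.63 with each library left out. That of KD, which is C1ql2 alone at −1.49, was −0.78 with no filter, over 8 genes of which 7 have at most 23 reads in any library. The median pairwise r in OE, 0.65, was 0.34 without control replicates 3 and 5 together, an alternative added after seeing the data, and 0.56 to 0.70 with single libraries left out. The second alternative added then, scaling KD to the reads outside Rn45s, gave −1.40 for C1ql2 (adjusted p = 0.002 from limma).

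Directions that turned all belong to genes that passed no threshold, and the cause was not tested. With single libraries left out, the log2 fold change ranged in aging from −0.14 to 0.82 for Prox1 and from −0.18 to 1.32 for C1ql3, and in OE from −0.43 to 0.13 for Prox1, −0.16 to 0.44 for C1ql3, −0.14 to 0.43 for Dsp, −0.18 to 0.23 for Calb1 and −0.21 to 0.56 for Stxbp6. In OE, median centring gave −0.07 for Dsp and −0.05 for Calb1. For C1ql3, Calb1, Glis3 and Stxbp6, edgeR gave −0.07, −0.02, −0.23 and −0.16, and DESeq2 −0.10, −0.04, −0.25 and −0.18. Without control replicates 3 and 5 together, values were 0.03 for C1ql2, −0.30 for C1ql3, −0.18 for Dsp, −0.46 for Calb1, −0.62 for Glis3, −0.79 for Stxbp6 and −0.41 for Dock10.

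Libraries of aging and KD share replicate numbers across groups, but same-numbered libraries did not deviate together (r of −0.05 and 0.02 in aging and −0.03, −0.02 and −0.05 in KD). With a replicate block, the medians were 0.63 in aging and −1.39 in KD, where C1ql2 had an adjusted p of 0.024 from limma, and the block changed no call of the 8 genes. Depth limited the KD experiment to 1 of the 8 genes.

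Over all genes, DESeq2 called 33 higher and 105 lower in aging and 7 higher and 94 lower in OE, where limma called 0. In KD, limma called 154 higher and 200 lower, 80 and 93 with the replicate block, and 12 and 6 of the 29 genes with a mean of at least 100.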

Other observations

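The ratio of C1ql2 to Prox1, each per kilobase, ranged from 16.2 to 55.7 over the 5 aging libraries. Over the 12 OE libraries it ranged from 37.1 in control replicate 2 to 378 in control replicate 3, a 10.2-fold span, with 145 in control replicate 5 and 166 in Ftl1 OE replicate 7 next below the highest. Mean log2 ratios were 6.60 in the OE controls and 6.43 in the libraries labelled Ftl1 OE.

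The genes nearest to C1ql2 and Dsp were looked up after their values were seen, over the 12 OE libraries and 10467 genes with a mean of at least 100. C1ql2 had r = 0.987 with Hpca, a neuronal calcium sensor, 0.96 with Arf3, 0.959 with Faim2, 0.959 with Slc30a3, the zinc transporter of synaptic vesicles, and 0.952 with Slc17a7, a vesicular glutamate transporter. The transcripts of these 5 genes have a GC content of 53.1% to 60.3%, where that of C1ql2 has 63.4% and the median of all genes tested is 50.4%. Dsp had r = 0.893 with Rtn1 and 0.842 with Ddx6.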
